A study of Mus musculus with 8 samples.

Results

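The comparison described here was K36M against WT reprogramming intermediates under TGF-beta, made from 4 of the 8 RNA-seq libraries of the series and followed over all 26930 genes of the deposited count table. Its members were the 2 libraries of K36M cells given TGF-beta1 and the 2 libraries of WT cells given TGF-beta1, chosen by genotype and treatment in the labels. The cells were mouse embryonic fibroblasts on day 8 of reprogramming by the OKSM factors (Oct4, Klf4, Sox2 and Myc) in the medium that the labels call AGi, with recombinant TGF-beta1 at 2.5 ng/ml in both groups. The other 4 libraries were K36M and WT cells of the same day that had received Repsox at 250 nM, which blocks the type I receptor kinase of TGF-beta, in place of TGF-beta1, and they are described below only where the 2 media are compared. They also entered the fit, so the standard errors and p-values of the TGF-beta comparison rest in part on their spread.

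K36M names a histone H3 in which methionine replaces the lysine at position 36. How the mutant was introduced, from which H3 gene or promoter, and into how many independent lines is not given in the sources used here, and in the labels WT libraries carry the word H3. A gene count cannot tell a mutant H3 transcript from a normal one, so the genotype could not be checked from the counts. Whether both libraries of a group stem from separate cultures is not stated in the labels. The p-values therefore measure the spread between these libraries, which may be technical.

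As background, methyl groups on lysine 36 of histone H3 mark transcribed chromatin, and the K36M protein acts as a dominant inhibitor of the enzymes that place them. Fibroblasts are mesenchymal cells, and on the way to pluripotency they gain the junctions and keratins of an epithelium before pluripotency genes are switched on. TGF-beta opposes this: it binds a pair of receptor types, its receptors phosphorylate Smad2 and Smad3, these enter the nucleus with Smad4, and the targets include matrix genes and the repressors of epithelial genes.

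RNA of 5741 genes (36.4% of the 15789 tested) was higher in K36M than in WT under TGF-beta and RNA of 5357 genes (33.9%) was lower, at an adjusted p below 0.05 in edgeR's quasi-likelihood test with Benjamini-Hochberg adjustment. With 70.3% of tested genes called, a gene list is read below against these shares. The fitted increases reached farther than the decreases: 1380 genes were at least 8-fold higher and 605 at least 8-fold lower, and 155 were at least 128-fold higher and 52 at least 128-fold lower. For a gene unread in K36M or in WT, however, the counts set only a lower bound. With 3 counts in place of 0, Myl3 was at least 99.8-fold higher (fitted 1236-fold) and Adamtsl3 at least 56-fold lower (fitted 727-fold). Genes with 0 counts in WT and at least 10 in each K36M library numbered 151, and the reverse 47. Their part in the wider increases was not tested. The median log2 fold change over all tested genes was 0.05. The 640 most abundant genes, above an average log2 CPM of 8, held 267 higher and 287 lower, and the 1313 rarest, at or below an average log2 CPM of 0, held 403 higher and 203 lower. Levels are given as CPM, counts scaled to equal library sizes, as library 1 and library 2 of each group, and fold changes on the log2 scale as K36M minus WT with their standard error. In bulk RNA, fewer cells of a type and less RNA per cell cannot be told apart.

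**Figure D1:**
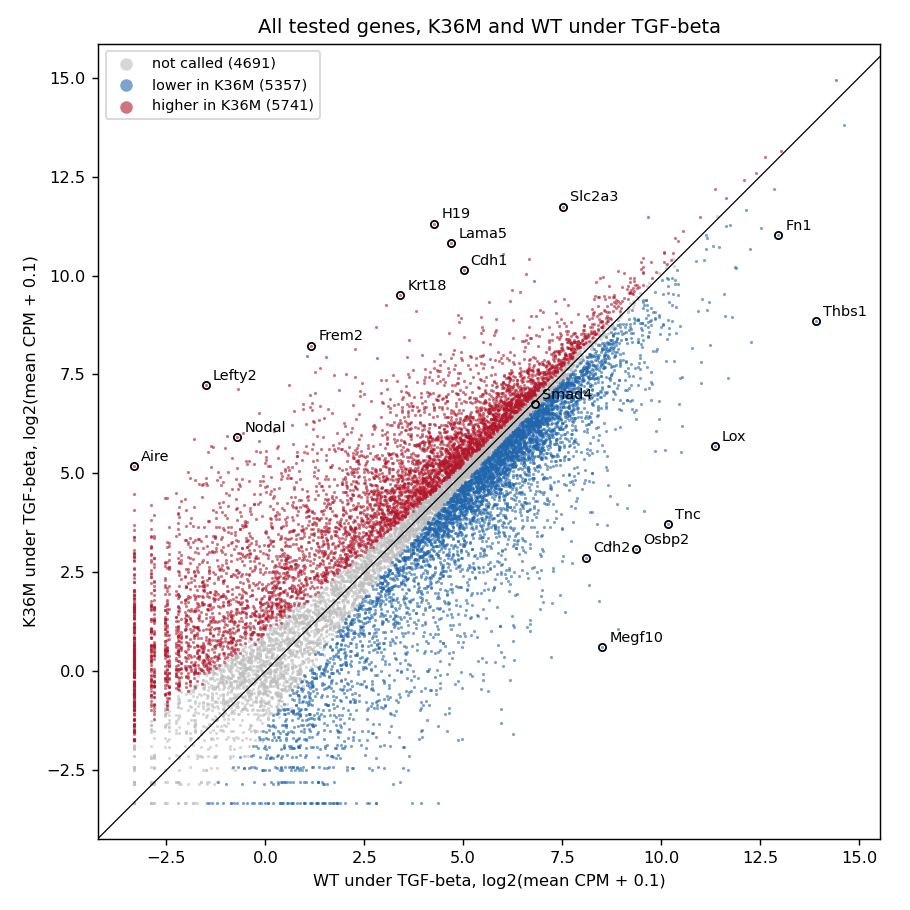
Each point is 1 of the 15789 tested genes, with the mean level of the 2 K36M libraries on the vertical axis and of the 2 WT libraries on the horizontal axis, both as log2(CPM + 0.1) under TGF-beta. The 5741 genes called higher in K36M lie above the diagonal and the 5357 called lower lie below it, and Lefty2, Aire, Lox and Osbp2 lie far from it while Smad4 lies on it.

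The 4 TGF-beta libraries held 12511258 and 10928302 counts for K36M and 12761968 and 15594217 counts for WT. Across tested genes the 2 libraries of a group had a Spearman correlation of 0.992 to 0.995 in the 4 groups. Of 11740 genes with an average log2 CPM of at least 2, the K36M pair differed at least 4-fold for 8 and the WT pair for 33. Other measures ranked the pairs the opposite way. Scaled by its degrees of freedom, chi-square was 5.43 for the K36M libraries and 2.75 for the WT libraries under TGF-beta. Their Spearman correlations were 0.994 and 0.995 in that order. WT library 1 had more RNA than WT library 2 of several epithelial genes, while pluripotency genes went both ways, with Nanog higher in library 1. The median log2 ratio of WT library 2 over WT library 1 was -0.32 for the tight junction list and 0.62 for the trophoblast markers. It was 0.002 for the naive pluripotency list and -0.03 for the late reprogramming list. Where 1 library moved a named gene's fold change by over 1.5 times, the value without it is given. Lars2, the gene of mitochondrial leucyl-tRNA synthetase, was among the genes with the widest WT pair: it had 134 and 186 CPM in K36M, against 28.5 and 181 CPM in WT. Its groups overlapped and it was not called (log2 fold change 0.60 ± 0.41, adjusted p = 0.196), but its log2 fold change was 2.49 without WT library 2 and -0.18 without WT library 1.

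Most genes of each epithelial list below were higher in K36M. Of the 19 tested members of the tight junction list, 18 were higher in K36M and 1 was lower; their median log2 fold change was 3.86. The adherens junction and epithelial surface list held 15 higher and 1 lower of 19 (median 2.97), the desmosome list 8 and 2 of 13 (1.49), and the keratin list 12 and 2 of 15 (3.28). The adherens junction and epithelial surface member called lower had a log2 fold change of -2.75. Both keratins called lower were at least 2-fold lower. Among epithelial transcription and splicing regulators 15 of 16 were higher and 1 lower (median 3.80), and among epithelial membrane proteases and their inhibitors 11 of 13 were higher and none lower (3.60).

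The 4 genes shown next carry, in the 250 bases before their annotated start, more than 1 copy of CACCTG or its reverse complement CAGGTG, the E-box form that the repressors Snai1, Zeb1 and Zeb2 are known to bind. They are shown because, of the epithelial genes looked up, they were the ones found with more than 1 match. Their match counts are therefore no result about these genes. The sequences are RefSeq promoters of GRCm38.p6, 5′ to 3′ on the gene's strand, with the matches in capitals.
Ap1m2: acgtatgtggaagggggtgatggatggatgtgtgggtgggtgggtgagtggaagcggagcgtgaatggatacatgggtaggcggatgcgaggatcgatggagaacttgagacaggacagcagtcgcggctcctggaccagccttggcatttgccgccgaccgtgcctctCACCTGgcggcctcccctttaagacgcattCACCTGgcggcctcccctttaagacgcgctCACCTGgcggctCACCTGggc
Crb3: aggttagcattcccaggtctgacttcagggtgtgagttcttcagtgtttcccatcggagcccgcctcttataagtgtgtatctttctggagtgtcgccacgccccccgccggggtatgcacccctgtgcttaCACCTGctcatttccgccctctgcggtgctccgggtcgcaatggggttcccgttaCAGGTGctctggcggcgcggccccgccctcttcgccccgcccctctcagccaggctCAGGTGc
Epcam: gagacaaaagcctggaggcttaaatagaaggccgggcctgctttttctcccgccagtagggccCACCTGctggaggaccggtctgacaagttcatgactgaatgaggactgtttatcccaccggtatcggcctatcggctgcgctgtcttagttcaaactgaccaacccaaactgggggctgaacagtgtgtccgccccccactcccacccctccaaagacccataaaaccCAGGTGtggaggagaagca
Rab25: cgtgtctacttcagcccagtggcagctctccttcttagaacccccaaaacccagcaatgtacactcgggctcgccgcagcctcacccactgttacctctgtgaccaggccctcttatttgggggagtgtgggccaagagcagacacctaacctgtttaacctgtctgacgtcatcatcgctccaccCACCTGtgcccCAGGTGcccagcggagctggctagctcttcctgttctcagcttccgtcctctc
They lie at chr9:21312334-21312583 on the minus strand, chr17:57061951-57062200 and chr17:87635729-87635978 on the plus strand, and chr3:88548280-88548529 on the minus strand, and hold 4, 3, 2 and 2 matches in that order. The match nearest the start begins 9 bases before it in Ap1m2, 7 in Crb3, 19 in Epcam and 53 in Rab25. Of 27025 genes in the table, 17.1% had at least 1 match on either strand in this window and 2.1% had 2 or more. The 4 genes were chosen after the matches were seen. Of the other epithelial genes looked up, Cgn, Cldn3, Cldn7, Ocln, Spint1 and Prom2 had none in their window, Tjp3, Cldn4, Cldn6, Krt7, Krt8, Krt18 and Elf3 had 1 each, and Cdh1 and Esrp1 were among those not in the table. The table held 16 of the 21 tight junction genes and smaller shares of the other epithelial lists, too few for a share over a list. A match is a run of letters and not evidence of binding.

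Ap1m2, the epithelial subunit of the clathrin adaptor that sorts proteins to the basolateral membrane, had 113 and 107 CPM in K36M, against 2.41 and 1.94 CPM in WT (log2 fold change 5.67 ± 0.13, adjusted p = 1.1e-19). Crb3, a polarity protein of the apical membrane, had 45.4 and 40.4 CPM in K36M, against 1.03 and 0.790 CPM in WT (log2 fold change 5.56 ± 0.19, adjusted p = 5.57e-17). Rab25, a small GTPase of epithelial vesicle recycling, had 11.3 and 7.95 CPM in K36M, against 0.947 and 0.287 CPM in WT (log2 fold change 4.01 ± 0.42, adjusted p = 1.64e-08). In all 3 genes every K36M library lay above every WT library. The groups did not overlap, in one direction or the other, for 85.2% of all tested genes. Such separation is therefore common, and for leading list members and the largest differences it follows largely from how they were picked.

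Cdh1, the gene of E-cadherin (chr8:109127251-109194146, + strand on mm9), had 1109.6 and 1127 CPM in K36M, against 41.1 and 23.1 CPM in WT (log2 fold change 5.14 ± 0.14, adjusted p = 1.45e-18). Epcam, an epithelial adhesion molecule, had 337 and 329 CPM in K36M, against 16.7 and 8.04 CPM in WT (log2 fold change 4.78 ± 0.17, adjusted p = 1.06e-16). The WT pair of both genes was uneven, with library 1 the higher, but the groups did not overlap. Cgn, the junction scaffold cingulin, had 141 and 135 CPM in K36M, against 3.96 and 3.16 CPM in WT (log2 fold change 5.28 ± 0.12, adjusted p = 1.1e-19). Tjp3, another junction scaffold, had 55.6 and 57.8 CPM in K36M, against 0.947 and 0.646 CPM in WT (log2 fold change 6.16 ± 0.18, adjusted p = 3.48e-18). Claudin 3, a barrier-forming membrane protein encoded by Cldn3, had 130.4 and 120.0 CPM in K36M, against 2.84 and 1.36 CPM in WT (log2 fold change 5.93 ± 0.17, adjusted p = 1.98e-18). Ocln, the gene of occludin, had a log2 fold change of 4.65 ± 0.22 (adjusted p = 1.53e-14), which was 5.62 without WT library 1 and 3.996 without WT library 2. Cldn12 was the tight junction member that fell, with 77.8 and 82.8 CPM in K36M, against 143 and 138 CPM in WT (log2 fold change -0.81 ± 0.09, adjusted p = 1.01e-07).

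The keratins that pair in simple epithelia rose together. Krt18 had 754 and 699 CPM in K36M, against 9.55 and 11.6 CPM in WT (log2 fold change 6.10 ± 0.10, adjusted p = 1.21e-21). Its partner Krt8 had 568 and 535 CPM in K36M, against 14.9 and 12.7 CPM in WT (log2 fold change 5.33 ± 0.09, adjusted p = 2.21e-21). Krt17, a keratin of stressed and basal epithelia, had 47.4 and 50.2 CPM in K36M, against 3.27 and 1.87 CPM in WT (log2 fold change 4.27 ± 0.22, adjusted p = 1.14e-13). Of the desmosome genes, Pkp3, Dsg2 and Ppl rose by log2 fold changes of 5.29, 4.20 and 4.04 (adjusted p = 3.86e-17, 3.32e-17 and 2.61e-18), while Perp and Jup, which encodes plakoglobin of both junction types, were -0.70 and -0.28 (adjusted p = 4.82e-08 and 0.000615). Among the proteases, the matriptase inhibitors Spint1 and Spint2 were at 4.76 and 3.60 (adjusted p = 1.15e-17 and 1.43e-18). The epithelial splicing and RNA-binding factors Esrp1 and Rbm47 and the transcription factor Elf3 had log2 fold changes of 5.54, 5.52 and 6.87 (adjusted p = 1.78e-16, 1.14e-15 and 1.68e-17). Without WT library 1 and without WT library 2 that of Esrp1 was 6.64 and 4.84, and that of Elf3 7.77 and 6.23. Ehf, an epithelial ETS factor, was the regulator that fell, with 5.70 and 5.16 CPM in K36M, against 11.2 and 14.1 CPM in WT (log2 fold change -1.22 ± 0.23, adjusted p = 5.65e-05).

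The mesenchymal genes moved the other way. Of 19 tested mesenchymal transition factors, 15 were lower in K36M and 1 was higher (median -3.42). Zeb2, a repressor of E-cadherin, had 5.94 and 6.20 CPM in K36M, against 104 and 119 CPM in WT (log2 fold change -4.20 ± 0.14, adjusted p = 6.06e-17), the groups well apart. Prrx1, a homeobox factor of limb and facial mesenchyme, had 4.84 and 5.16 CPM in K36M, against 111 and 132 CPM in WT (log2 fold change -4.61 ± 0.16, adjusted p = 8.39e-17). Twist1, a helix-loop-helix factor of mesenchyme, had 2.19 and 1.22 CPM in K36M, against 17.04 and 20.7 CPM in WT (log2 fold change -3.44 ± 0.26, adjusted p = 5.82e-11). Snai1, itself a Smad target, was lower by less, with 12.1 and 11.4 CPM in K36M, against 18.2 and 23.8 CPM in WT (log2 fold change -0.84 ± 0.16, adjusted p = 9.49e-05). Its relative Snai2 had 0.781 and 0.350 CPM in K36M, against 7.83 and 6.25 CPM in WT, a log2 fold change of -3.58 (adjusted p = 1.05e-08) that was -4.29 without K36M library 1. Zeb1 was close to the detection limit at 0.156 and 0 CPM in K36M, against 0.775 and 1.15 CPM in WT, and its adjusted p of 0.00794 became 0.0632 without WT library 2 and 0.0882 without K36M library 2. Its log2 fold change of -3.42 was -6.70 without K36M library 1 and -2.56 without K36M library 2. Msx2, a homeobox factor, was the member that rose, with 9.46 and 11.4 CPM in K36M, against 5.34 and 5.31 CPM in WT (log2 fold change 0.97 ± 0.20, adjusted p = 0.000177).

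**Figure D2:**
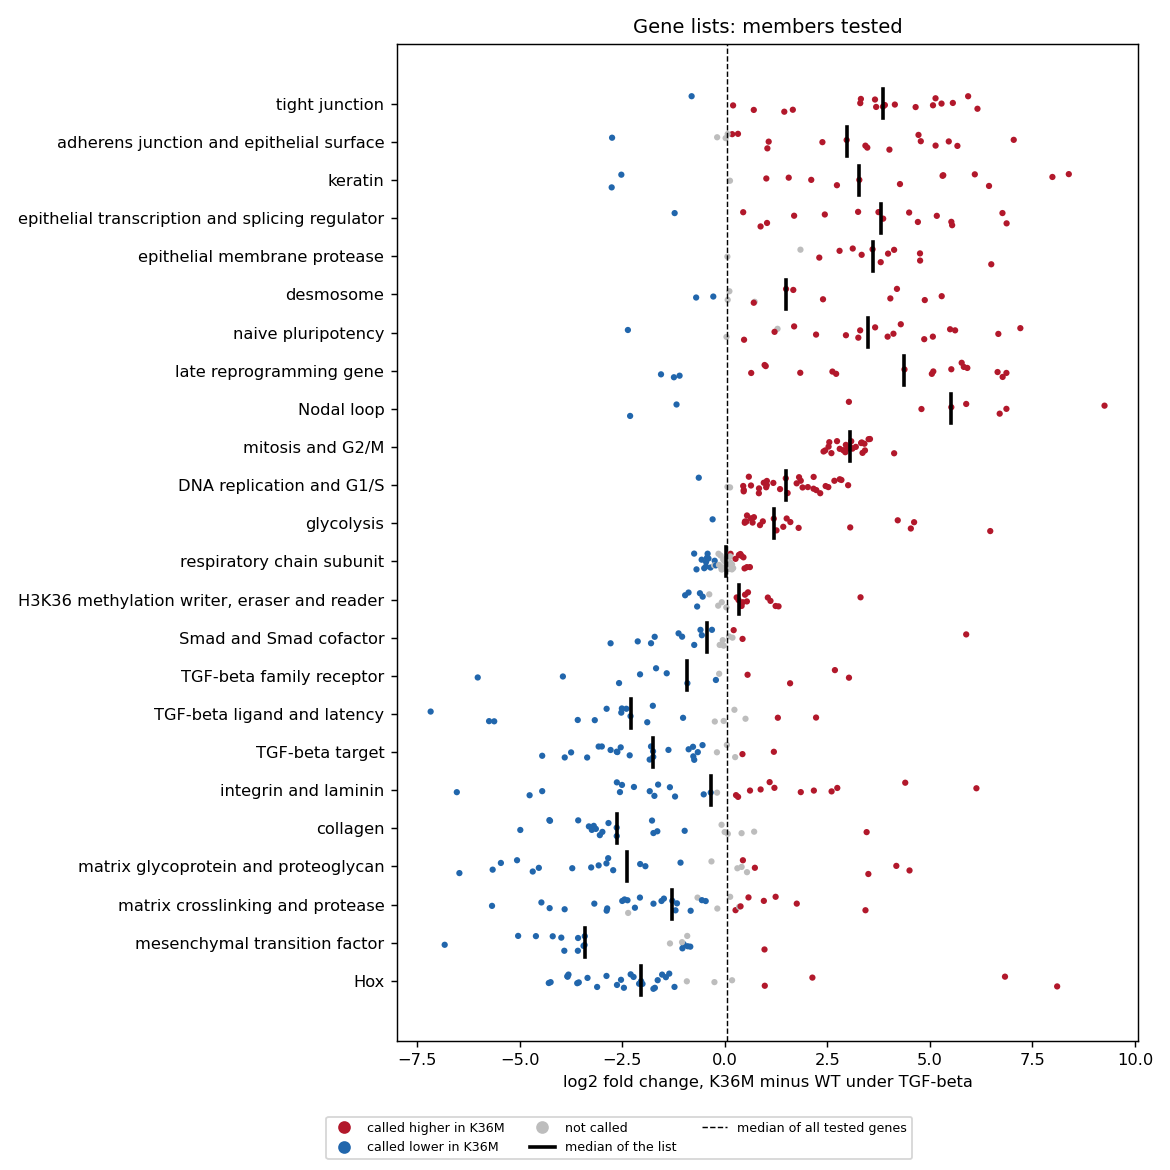
Each point is a tested member of a gene list, placed by its log2 fold change, K36M minus WT under TGF-beta, with the list's median as a black bar and the median of all tested genes, 0.05, as a dashed line. The 23 mitosis genes all lie right of 0, most mesenchymal factors and most Hox genes lie left, and the respiratory chain subunits gather at the line.

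Most matrix genes were lower in K36M. Of 23 collagen genes, 17 were lower in K36M, 1 was higher and 5 were not called (median -2.64). Col1a2, a chain of the main fibrillar collagen, had 172 and 171 CPM in K36M, against 3031 and 3545 CPM in WT (log2 fold change -4.26 ± 0.10, adjusted p = 8.56e-20). Col5a2, which regulates fibril diameter, had 48.8 and 43.3 CPM in K36M, against 1436 and 1486 CPM in WT (log2 fold change -4.99 ± 0.10, adjusted p = 1.32e-20). Col18a1, a basement membrane collagen and the source of endostatin, was the gene that rose, with 1064 and 1034 CPM in K36M, against 94.1 and 96.8 CPM in WT (log2 fold change 3.46 ± 0.08, adjusted p = 9.39e-20). The 3 most abundant of the uncalled genes, named after their values were seen, were well expressed. Col4a1, a basement membrane chain, had 505 and 515 CPM in K36M, against 486 and 536 CPM in WT. Its partner Col4a2 had 409 and 409 CPM in K36M, against 420.4 and 443 CPM in WT, and Col6a2 had 32.7 and 42.6 CPM in K36M, against 30.5 and 40.5 CPM in WT.

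Among matrix glycoproteins and proteoglycans 15 of 24 were lower and 5 higher. Thbs1, the gene of thrombospondin 1, which activates latent TGF-beta (chr2:117937612-117952869, + strand on mm9), had 433 and 484 CPM in K36M, against 14933 and 15756 CPM in WT (log2 fold change -5.07 ± 0.09, adjusted p = 2.4e-21). Tnc, the gene of tenascin C, had 12.3 and 13.9 CPM in K36M, against 1108 and 1209 CPM in WT (log2 fold change -6.47 ± 0.16, adjusted p = 2.81e-19). Fn1, the gene of fibronectin, had 2004 and 2149.8 CPM in K36M, against 7802 and 8098 CPM in WT (log2 fold change -1.94 ± 0.06, adjusted p = 1.79e-17). Fbln1, the gene of the elastic fibre protein fibulin 1, rose, with 90.8 and 79.95 CPM in K36M, against 7.06 and 7.97 CPM in WT (log2 fold change 3.50 ± 0.14, adjusted p = 5.04e-16).

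Of the matrix crosslinking enzymes and proteases 21 of 33 were lower and 7 higher. Lox, the lysyl oxidase that crosslinks collagen (chr18:52675723-52689521, - strand on mm9), had 44.5 and 58.5 CPM in K36M, against 2599.8 and 2652 CPM in WT (log2 fold change -5.68 ± 0.19, adjusted p = 4.53e-17). Timp3, an inhibitor of matrix proteases, had 23.99 and 28.4 CPM in K36M, against 553 and 607 CPM in WT (log2 fold change -4.47 ± 0.10, adjusted p = 5.43e-20). Mmp9, a gelatinase, rose, with 47.6 and 40.8 CPM in K36M, against 5.08 and 3.23 CPM in WT (log2 fold change 3.43 ± 0.22, adjusted p = 3.52e-12).

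The integrin and laminin list was divided, with 12 higher and 14 lower of 27. Lama5, a laminin chain of epithelial basement membranes, had 1863 and 1727 CPM in K36M, against 35.7 and 16.2 CPM in WT (log2 fold change 6.13 ± 0.19, adjusted p = 8.89e-18; 6.78 without WT library 1). Itga3, a receptor subunit for such laminins, had 371 and 356 CPM in K36M, against 54.7 and 53.9 CPM in WT (log2 fold change 2.74 ± 0.08, adjusted p = 5.22e-18). Itgb1, the beta chain shared by most integrins, fell to 501 and 512 CPM in K36M, against 3122 and 3163 CPM in WT (log2 fold change -2.63 ± 0.06, adjusted p = 6.02e-20). Lama2, a laminin chain of mesenchyme and muscle, had 4.77 and 6.64 CPM in K36M, against 144 and 163 CPM in WT (log2 fold change -4.76 ± 0.15, adjusted p = 8.7e-18).

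Beside these changes, 9 of 13 tested fibroblast markers were lower in K36M and 2 higher, and their summed level was 951 and 975 CPM in K36M, against 11584 and 12960.3 CPM in WT. Col1a1, Col1a2 and Col3a1 stand in both this list and the collagen list. Vim, the gene of the mesenchymal filament protein vimentin, made up much of the sum, with 302 and 331 CPM in K36M, against 4845 and 5115 CPM in WT (log2 fold change -3.98 ± 0.08, adjusted p = 4.96e-21). Thy1, a fibroblast surface marker that reprogramming cells lose, was slightly higher in K36M, with 37.9 and 36.7 CPM in K36M, against 25.7 and 31.2 CPM in WT (log2 fold change 0.38 ± 0.10, adjusted p = 0.00152), and its adjusted p was 0.0713 without WT library 1. The other fibroblast marker called higher was at least 2-fold higher, and the largest log2 fold change on that list was 4.50. The part of the proportion of fibroblasts in the matrix result was not tested.

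Most called genes of the TGF-beta pathway were lower in K36M. Of 19 tested ligands, antagonists and latency proteins, 13 were lower in K36M and 2 higher (median -2.30). Of 13 receptors 8 were lower and 4 higher (-0.91), of 18 Smads and Smad cofactors 10 were lower and 3 higher (-0.44), and of 27 target genes 22 were lower and 2 higher (-1.75). The share of Smads and cofactors called in either direction was near that of all tested genes.

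Tgfb2 and Tgfb3 encode ligands of the same receptors as TGF-beta1. Tgfb2 had 13.1 and 11.5 CPM in K36M, against 106 and 117 CPM in WT (log2 fold change -3.17 ± 0.12, adjusted p = 2.83e-16). Tgfb3 had 10.5 and 12.1 CPM in K36M, against 55.01 and 63.6 CPM in WT (log2 fold change -2.40 ± 0.13, adjusted p = 3.23e-13). Tgfb1 had 36.5 and 34.3 CPM in K36M, against 27.8 and 32.2 CPM in WT and was not called (log2 fold change 0.23 ± 0.12, adjusted p = 0.0904). Inhba, which encodes the subunit of activin A, had 1.72 and 2.10 CPM in K36M, against 109 and 96.6 CPM in WT (log2 fold change -5.75 ± 0.18, adjusted p = 1.7e-17). Fst, which encodes the activin antagonist follistatin, had 7.66 and 9.52 CPM in K36M, against 102 and 103 CPM in WT (log2 fold change -3.59 ± 0.13, adjusted p = 1.04e-16). Ltbp4, which tethers latent TGF-beta to the matrix, rose, with 258 and 217 CPM in K36M, against 48.98 and 52.7 CPM in WT (log2 fold change 2.22 ± 0.11, adjusted p = 2.33e-14).

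Both signalling receptors for TGF-beta1 were lower. The type I receptor gene Tgfbr1 had 23.2 and 21.1 CPM in K36M, against 93.5 and 92.3 CPM in WT (log2 fold change -2.07 ± 0.11, adjusted p = 9.65e-14). The type II receptor gene Tgfbr2 had 23.1 and 26.7 CPM in K36M, against 148 and 149 CPM in WT (log2 fold change -2.58 ± 0.10, adjusted p = 5.77e-16). Their WT libraries were the higher ones. Acvr1, a type I receptor of BMPs, had 26.8 and 25.2 CPM in K36M, against 398 and 404 CPM in WT (log2 fold change -3.95 ± 0.12, adjusted p = 4.46e-18). The receptors of Nodal and activin were divided: Acvr1b and Acvr2b were higher, and Acvr2a was lower (log2 fold change -0.91 ± 0.12, adjusted p = 5.18e-07). Acvr1b had 46.6 and 42.1 CPM in K36M, against 7.14 and 6.68 CPM in WT (log2 fold change 2.68 ± 0.15, adjusted p = 5.24e-13). Acvr2b had 38.2 and 41.2 CPM in K36M, against 5.25 and 4.52 CPM in WT (log2 fold change 3.03 ± 0.18, adjusted p = 1.42e-12). Tgfbr3, the co-receptor betaglycan, had 7.74 and 10.05 CPM in K36M, against 2.50 and 3.30 CPM in WT (log2 fold change 1.59 ± 0.22, adjusted p = 1.33e-06). Acvrl1 was the other receptor called higher.

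The Smads that carry the signal differed little. Smad4 had 113 and 103 CPM in K36M, against 114 and 109.9 CPM in WT and was not called (log2 fold change -0.05 ± 0.08, adjusted p = 0.602). Smad2 had 50.6 and 46.8 CPM in K36M, against 71.1 and 72.7 CPM in WT (log2 fold change -0.56 ± 0.09, adjusted p = 7.26e-06). Smad3 had 95.4 and 98.2 CPM in K36M, against 79.3 and 87.2 CPM in WT (log2 fold change 0.22 ± 0.09, adjusted p = 0.0315), a call that was lost in 6 of the alternatives tried, with adjusted p of 0.0513 to 0.282. The corepressor gene Ski had 242 and 233 CPM in K36M, against 246 and 238 CPM in WT and was not called (adjusted p = 0.75). The feedback inhibitors differed more. Smad7 had 91.9 and 102 CPM in K36M, against 333 and 342 CPM in WT (log2 fold change -1.80 ± 0.08, adjusted p = 8.62e-15). Smurf1, a ubiquitin ligase that works with it, had 102 and 105 CPM in K36M, against 341 and 336 CPM in WT (log2 fold change -1.71 ± 0.08, adjusted p = 6.08e-15). Pmepa1, which sequesters receptor Smads, had 70.5 and 73.5 CPM in K36M, against 489 and 503 CPM in WT (log2 fold change -2.78 ± 0.10, adjusted p = 1.62e-16).

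Among the targets, Ctgf, which encodes a matricellular growth factor, had 156 and 153 CPM in K36M, against 2052 and 2099 CPM in WT (log2 fold change -3.75 ± 0.09, adjusted p = 8.56e-20). Nox4, a NADPH oxidase gene, had 11.1 and 11.7 CPM in K36M, against 115 and 119 CPM in WT (log2 fold change -3.36 ± 0.12, adjusted p = 1.18e-16). Adam12, a metalloprotease gene, had 13.99 and 9.96 CPM in K36M, against 173 and 187 CPM in WT (log2 fold change -3.90 ± 0.13, adjusted p = 5.56e-17). For all 3 genes the WT libraries were the higher. Klf10, an early TGF-beta response gene, was above WT in K36M, with 146 and 146 CPM in K36M, against 62.9 and 64.6 CPM in WT (log2 fold change 1.20 ± 0.09, adjusted p = 4.91e-11). Pdgfb was the other target called higher (log2 fold change 0.43, adjusted p = 0.00052).

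**Figure D3:**
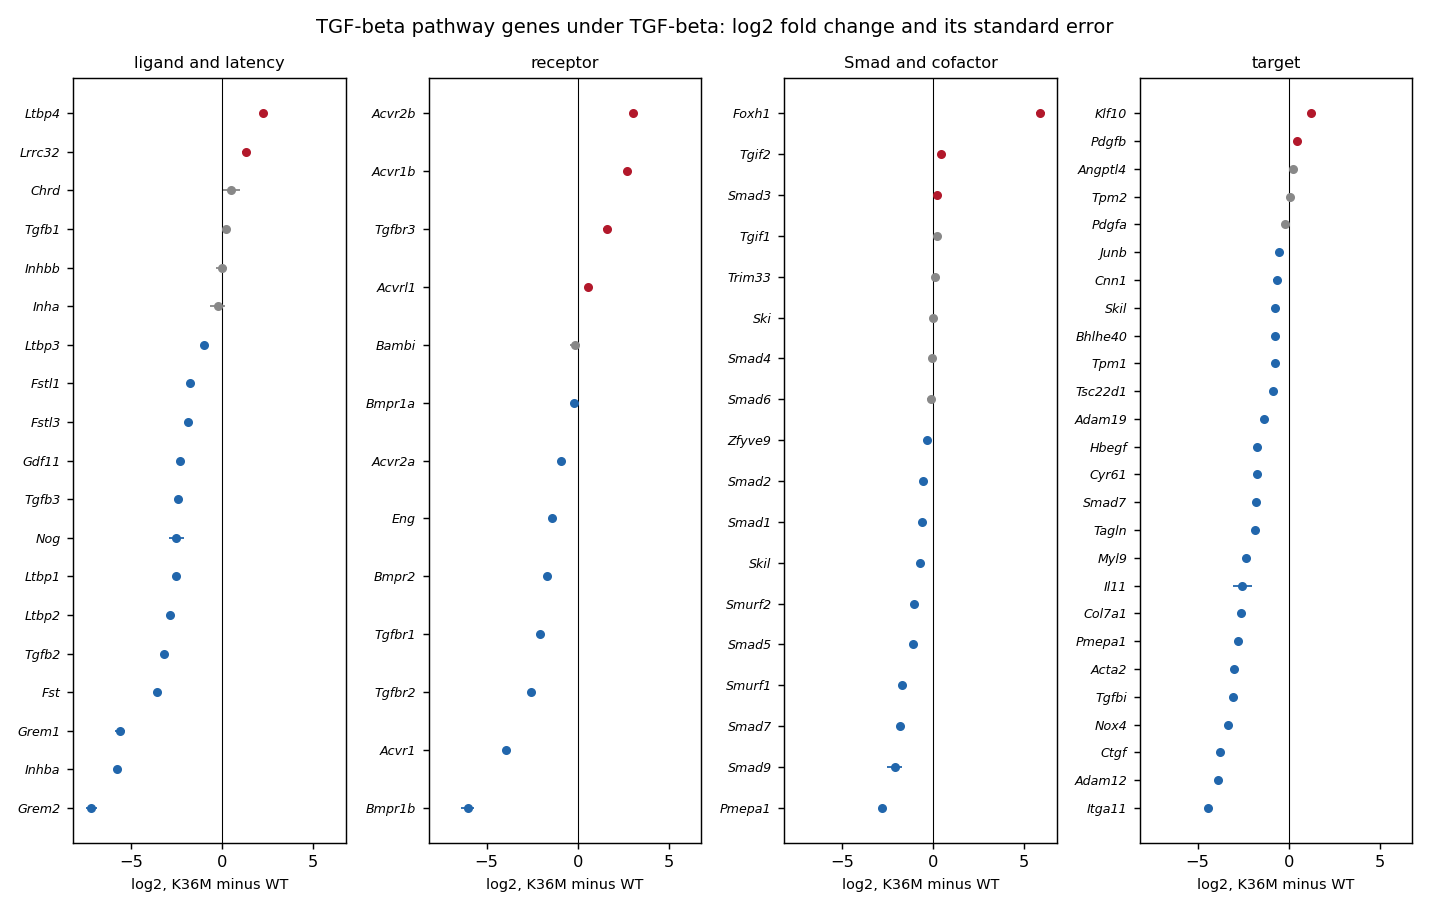
TGF-beta pathway genes that were tested (all but 1 of them drawn) are split by role, with the log2 fold change, K36M minus WT under TGF-beta, on the horizontal axis and bars for its standard error (red higher, blue lower, grey not called). Acvr2b, Acvr1b and Foxh1 lie to the right, Tgfbr1 and Tgfbr2 to the left, and Smad4 at 0.

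Nodal is another ligand of the TGF-beta family; it signals through Acvr1b and Acvr2b with the co-receptor Tdgf1 and the Smad partner Foxh1, and induces its own inhibitors Lefty1 and Lefty2. Of the 9 tested genes of this loop 7 were higher in K36M under TGF-beta and 2 were lower (median 5.52). Under Repsox the median of the same genes was -0.26. Both medians are the values of the same member, whose WT libraries were uneven under TGF-beta. Without WT library 1 its log2 fold change under TGF-beta was 4.65, and without WT library 2 it was 11.16.

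Lefty2 (chr1:182823239-182829234, + strand on mm9) had 162 and 138 CPM in K36M, against 0.430 and 0.0718 CPM in WT (log2 fold change 9.26 ± 0.32, adjusted p = 5.5e-17). Without WT library 1 its log2 fold change was 10.84 and without WT library 2 it was 8.41. Under Repsox it was close to the detection limit in both genotypes, at 0.132 and 0.322 CPM in K36M and 0.0674 and 1.21 CPM in WT, so that of the 4 groups K36M under TGF-beta stood far above the rest. Nodal had 59.2 and 61.8 CPM in K36M, against 0.516 and 0.503 CPM in WT (log2 fold change 6.87 ± 0.23, adjusted p = 4.68e-17) under TGF-beta and 20.9 and 15.4 CPM in K36M and 18.8 and 18.6 CPM in WT under Repsox. Lefty1 had 47.1 and 39.2 CPM in K36M, against 6.97 and 3.81 CPM in WT (log2 fold change 3.03 ± 0.21, adjusted p = 1.43e-11). Tdgf1 had 148 and 155 CPM in K36M, against 0.947 and 1.87 CPM in WT (log2 fold change 6.70 ± 0.15, adjusted p = 8.56e-20; 7.31 without WT library 2). Foxh1 had 43.8 and 35.8 CPM in K36M, against 0.516 and 0.790 CPM in WT (log2 fold change 5.89 ± 0.22, adjusted p = 3.55e-16). The members that fell were proprotein convertase genes, whose products cleave the Nodal precursor. Furin had 226 and 237 CPM in K36M, against 512 and 534 CPM in WT (log2 fold change -1.18 ± 0.08, adjusted p = 1.4e-11). Pcsk6 had 20.8 and 15.99 CPM in K36M, against 101 and 82.4 CPM in WT (log2 fold change -2.31 ± 0.12, adjusted p = 1.52e-13).

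The pluripotency genes rose as lists while the 4 reprogramming factor genes fell. Of 20 naive pluripotency genes 17 were higher and 1 lower (median 3.48), of 19 late reprogramming genes 16 and 3 (4.38), and of 15 formative and primed genes 10 and 4 (2.50). Esrrb, an orphan nuclear receptor of the naive network, had 92.7 and 89.7 CPM in K36M, against 2.75 and 3.45 CPM in WT (log2 fold change 4.86 ± 0.15, adjusted p = 1.52e-17). Nanog had 103 and 105 CPM in K36M, against 13.9 and 3.23 CPM in WT (log2 fold change 3.66 ± 0.25, adjusted p = 1.44e-11), and its log2 fold change was 5.00 without WT library 1 and 2.91 without WT library 2. Utf1, a chromatin factor of embryonic stem cells, had 101 and 97.4 CPM in K36M, against 2.32 and 1.36 CPM in WT (log2 fold change 5.77 ± 0.16, adjusted p = 1.98e-18). Lin28a, which blocks let-7 processing, had 113 and 101 CPM in K36M, against 1.29 and 2.37 CPM in WT (log2 fold change 5.83 ± 0.16, adjusted p = 1.38e-18). Zscan10, a zinc finger factor of the same cells, had 48.1 and 55.1 CPM in K36M, against 1.38 and 0.933 CPM in WT (log2 fold change 5.49 ± 0.18, adjusted p = 4.24e-17). Every K36M library of these genes exceeded every WT library, as the groups did not overlap, in one direction or the other, for 85.2% of all tested genes. Jam2 was the naive gene that fell, with 7.35 and 9.79 CPM in K36M, against 41.9 and 45.7 CPM in WT (log2 fold change -2.36 ± 0.14, adjusted p = 9.23e-13).

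Reads of the introduced OKSM factors and of the cells' own genes cannot be told apart here. Klf4 had 194 and 221 CPM in K36M, against 689.8 and 687 CPM in WT (log2 fold change -1.73 ± 0.07, adjusted p = 1.85e-15). Myc had 187 and 184 CPM in K36M, against 577 and 570.2 CPM in WT (log2 fold change -1.63 ± 0.07, adjusted p = 3.04e-15). Sox2 had 101 and 112 CPM in K36M, against 316 and 310.1 CPM in WT (log2 fold change -1.56 ± 0.08, adjusted p = 4.37e-14). Pou5f1 had 312 and 309 CPM in K36M, against 435 and 416 CPM in WT (log2 fold change -0.46 ± 0.07, adjusted p = 4.58e-06). All 4 were lower in both K36M libraries.

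Genes of cell division were higher in K36M. All 23 mitosis and G2/M genes were called, between log2 fold changes of 2.41 and 4.13, and 30 of 33 DNA replication and G1/S genes were higher and 1 lower (median 1.49). Cenpf, which encodes a kinetochore protein, had 514 and 509 CPM in K36M, against 29.2 and 29.3 CPM in WT (log2 fold change 4.13 ± 0.08, adjusted p = 6.74e-21). Ccnb2, which encodes cyclin B2, had 127 and 139 CPM in K36M, against 11.5 and 11.8 CPM in WT (log2 fold change 3.51 ± 0.11, adjusted p = 7.89e-18). Bub1, which encodes a checkpoint kinase, had 123 and 137 CPM in K36M, against 11.97 and 12.3 CPM in WT (log2 fold change 3.42 ± 0.10, adjusted p = 6.13e-18). Mcm10, a replication initiation gene, had 107 and 102 CPM in K36M, against 14.3 and 11.8 CPM in WT (log2 fold change 3.01 ± 0.12, adjusted p = 1.28e-15). Pcna, the sliding clamp gene, had 95.1 and 85.7 CPM in K36M, against 61.3 and 59.3 CPM in WT (log2 fold change 0.59 ± 0.09, adjusted p = 4.96e-06). Ccne2, which encodes cyclin E2, was lower (log2 fold change -0.63 ± 0.26, adjusted p = 0.0346) but was not called without WT library 2, without K36M library 1 or in DESeq2 (adjusted p = 0.296, 0.39 and 0.0568).

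The inhibitors of the cell cycle did not move as 1 group: 10 of 22 CDK inhibitor and p53 target genes were higher and 9 lower. Among all tested genes the shares were 36.4% and 33.9%. Cdkn1a, which encodes p21, had 372 and 359.6 CPM in K36M, against 1180.3 and 1155 CPM in WT (log2 fold change -1.68 ± 0.06, adjusted p = 3.23e-16). Cdkn2b, which encodes p15 and is a TGF-beta target, had 63.4 and 63.1 CPM in K36M, against 158 and 167 CPM in WT (log2 fold change -1.36 ± 0.08, adjusted p = 1.45e-12). Cdkn2a had 149 and 137 CPM in K36M, against 180.0 and 197 CPM in WT (log2 fold change -0.40 ± 0.10, adjusted p = 0.000807). Cdkn1b, which encodes p27, had 58.8 and 56.5 CPM in K36M, against 9.04 and 10.8 CPM in WT (log2 fold change 2.53 ± 0.12, adjusted p = 8.94e-15). The imprinted Cdkn1c, which encodes p57, had 56.03 and 53.3 CPM in K36M, against 2.41 and 4.60 CPM in WT (log2 fold change 3.93 ± 0.15, adjusted p = 4.88e-16). Cdkn1a, Cdkn2a and Cdkn2b were higher in WT, Cdkn1b and Cdkn1c in K36M.

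Glycolysis genes were higher for 20 of 21 and lower for 1 (median 1.19), while of 48 nuclear-encoded respiratory chain subunits 9 were higher and 12 lower, none by 2-fold, with a median of 0.04. Slc2a1, the glucose transporter GLUT1, had 1516 and 1453 CPM in K36M, against 62.4 and 65.6 CPM in WT (log2 fold change 4.54 ± 0.07, adjusted p = 2.75e-22). Slc2a3, the transporter GLUT3, had 3419 and 3395 CPM in K36M, against 193 and 174 CPM in WT (log2 fold change 4.22 ± 0.06, adjusted p = 2.75e-22). Slc16a3, which exports lactate, had 232 and 257 CPM in K36M, against 3.18 and 2.37 CPM in WT (log2 fold change 6.47 ± 0.13, adjusted p = 1.01e-20). Hk1, a hexokinase gene, was the member that fell, with 152 and 147 CPM in K36M, against 183 and 185 CPM in WT (log2 fold change -0.30 ± 0.08, adjusted p = 0.00155). The largest respiratory differences were Uqcrq at -0.75 and Atp5a1 at 0.61 on the log2 scale (adjusted p = 4.56e-08 and 2.3e-08).

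**Figure D4:**
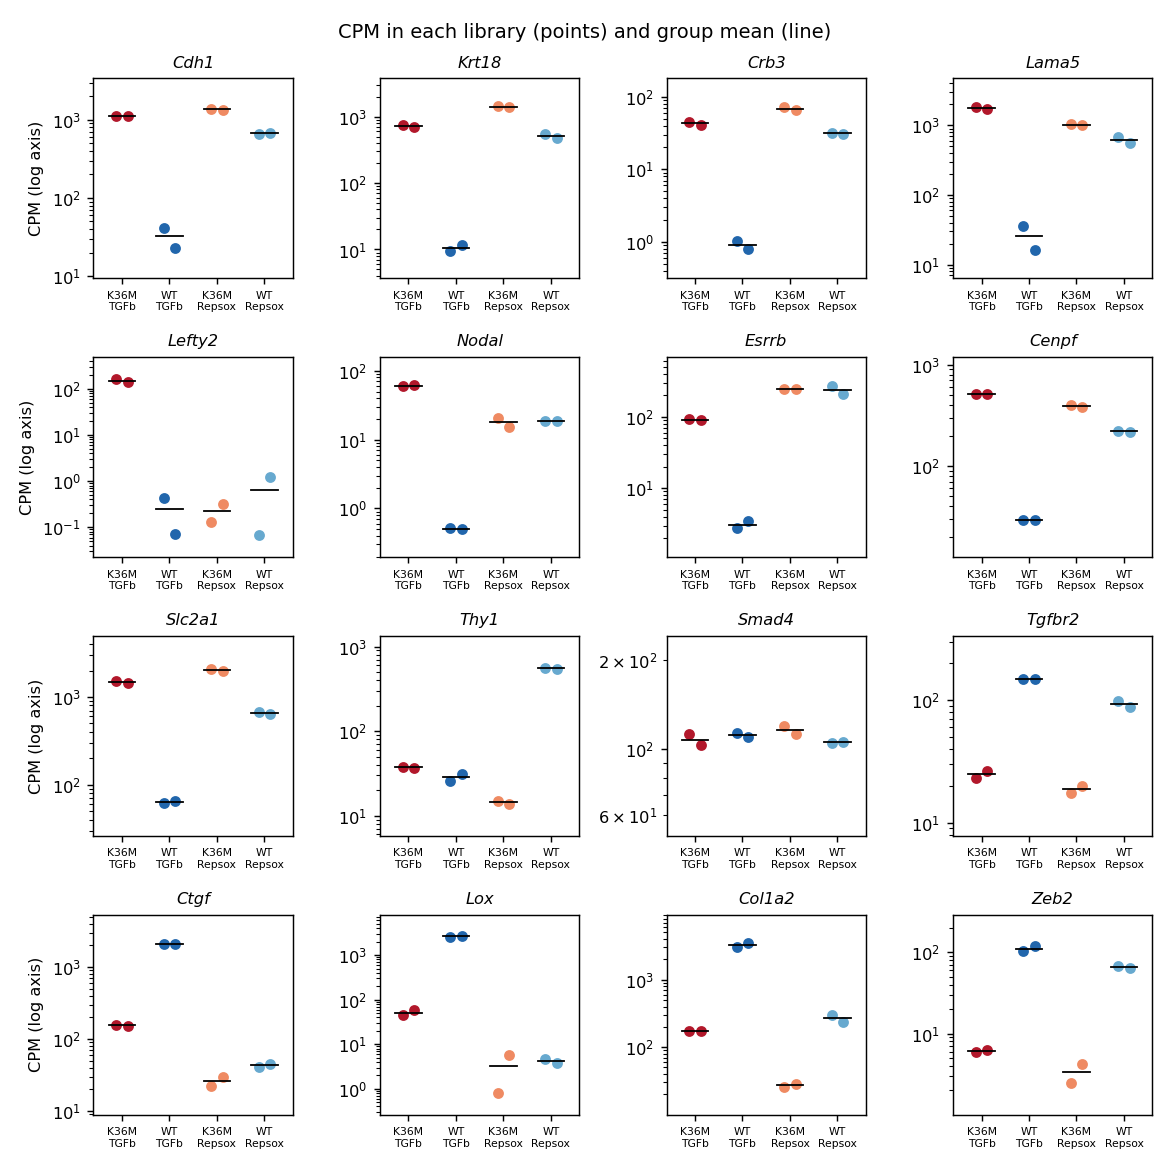
CPM on a log axis for 16 genes, with 1 point for each library and a line at the group mean, in the order K36M TGF-beta, WT TGF-beta, K36M Repsox, WT Repsox. Lefty2 stands far above the other groups in K36M under TGF-beta, Lox in WT under TGF-beta, and Smad4 lies at one level in all 4 groups.

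Chromatin genes that write, remove or read H3K36 methylation, with the H3.3 genes, held 12 higher and 5 lower of 21 (median 0.34). Setd2, which places the third methyl group, had 210.3 and 231 CPM in K36M, against 209.9 and 219.7 CPM in WT and was not called (log2 fold change 0.04 ± 0.07, adjusted p = 0.665). Nsd1, which places the lower methylation states, had 479 and 524 CPM in K36M, against 390.5 and 404 CPM in WT (log2 fold change 0.34 ± 0.07, adjusted p = 0.000114). Ash1l, another methyltransferase gene, had 116 and 135 CPM in K36M, against 248 and 243 CPM in WT (log2 fold change -0.97 ± 0.08, adjusted p = 3.11e-10). The 3 Polycomb partners that read H3K36 methylation were higher. Phf19 had 8.21 and 11.4 CPM in K36M, against 0.947 and 1.01 CPM in WT (log2 fold change 3.31 ± 0.28, adjusted p = 5.47e-10). Phf1 had 17.3 and 18.4 CPM in K36M, against 7.32 and 7.11 CPM in WT (log2 fold change 1.31 ± 0.17, adjusted p = 3.46e-07). Mtf2 had 72.05 and 78.5 CPM in K36M, against 32.7 and 31.1 CPM in WT (log2 fold change 1.24 ± 0.09, adjusted p = 8.82e-11). H3f3b, an H3.3 gene, had 339 and 304 CPM in K36M, against 221 and 221 CPM in WT (log2 fold change 0.54 ± 0.07, adjusted p = 6.21e-07). H3f3a had 90.2 and 84.5 CPM in K36M, against 95.2 and 100.2 CPM in WT, not called (log2 fold change -0.16 ± 0.08, adjusted p = 0.085), though its adjusted p was 0.0496 with another scaling (RLE).

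DNA methylation and TET genes were divided, with 7 higher and 7 lower of 15. Tet1, which oxidises methylcytosine, had 159 and 167 CPM in K36M, against 7.40 and 8.90 CPM in WT (log2 fold change 4.31 ± 0.10, adjusted p = 9.39e-20). Uhrf1, which guides maintenance methylation, had 366 and 382 CPM in K36M, against 46.7 and 40.4 CPM in WT (log2 fold change 3.11 ± 0.10, adjusted p = 1.08e-17). Dnmt3b, a de novo methyltransferase gene, had 133 and 123 CPM in K36M, against 6.54 and 4.60 CPM in WT (log2 fold change 4.54 ± 0.13, adjusted p = 2.16e-18). Tet3 and the methyl-CpG reader gene Zbtb38 were lower, at -0.98 and -1.38 on the log2 scale (adjusted p = 6.51e-10 and 5.78e-13).

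Of 33 tested Hox genes, which set position along the body axis and are active in fibroblasts according to their origin, 26 were lower in K36M and 4 higher (median -2.04). Hoxa3 had 5.24 and 5.94 CPM in K36M, against 71.9 and 84.7 CPM in WT (log2 fold change -3.81 ± 0.17, adjusted p = 6.42e-15). Hoxc8 had 10.3 and 11.4 CPM in K36M, against 128 and 127 CPM in WT (log2 fold change -3.56 ± 0.14, adjusted p = 3.64e-16). Hoxa7 had 1.33 and 0.874 CPM in K36M, against 17.6 and 24.8 CPM in WT (log2 fold change -4.25 ± 0.29, adjusted p = 1.13e-11). Hoxc13, Hoxb1 and Hoxb13, named after their values were seen, were among the higher ones. Hoxb1 had 2.66 and 2.53 CPM in K36M, against 0 and 0 CPM in WT.

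Interferon-stimulated genes were higher for 23 of 31 and lower for 1 (median 1.99; 3.01 under Repsox). Bst2, which encodes tetherin, had 144 and 137 CPM in K36M, against 8.44 and 8.33 CPM in WT (log2 fold change 4.07 ± 0.11, adjusted p = 1.03e-18). Oas3, which encodes an RNA-sensing synthetase, had 9.22 and 11.8 CPM in K36M, against 0.344 and 0.287 CPM in WT (log2 fold change 5.02 ± 0.41, adjusted p = 2.77e-10). Rsad2, which encodes viperin, had 2.58 and 3.41 CPM in K36M, against 0 and 0 CPM in WT, at least 25.3-fold higher against the floor of 3 counts in WT. Among MHC class I and antigen processing genes 10 of 14 were higher and 3 lower. H2-K1, a class I heavy chain, had 83.8 and 72.96 CPM in K36M, against 12.7 and 12.8 CPM in WT (log2 fold change 2.62 ± 0.12, adjusted p = 1.08e-14). The peptide transporter gene Tap2 had 29.9 and 28.8 CPM in K36M, against 2.41 and 2.30 CPM in WT (log2 fold change 3.64 ± 0.19, adjusted p = 1e-13). B2m, the shared light chain, went the other way, with 62.4 and 71.9 CPM in K36M, against 149 and 167 CPM in WT (log2 fold change -1.24 ± 0.13, adjusted p = 1.2e-08).

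Fibroblast chemokines and cytokines were lower for 13 of 16 and higher for 2. Ccl2 had 0.0781 and 0.0874 CPM in K36M, against 6.97 and 8.83 CPM in WT (log2 fold change -6.43 ± 0.62, adjusted p = 4.2e-09). Ptgs2, which encodes the prostaglandin synthase COX-2, had 15.8 and 25.9 CPM in K36M, against 234 and 233 CPM in WT (log2 fold change -3.50 ± 0.14, adjusted p = 6.63e-16). Vegfa rose, with 107 and 117 CPM in K36M, against 34.4 and 37.5 CPM in WT (log2 fold change 1.64 ± 0.09, adjusted p = 4.26e-13).

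Growth factor systems changed in parts. The IGF list held 9 higher and 5 lower of 14. Igfbp2, an IGF carrier, had 301 and 261 CPM in K36M, against 4.73 and 4.67 CPM in WT (log2 fold change 5.90 ± 0.13, adjusted p = 4.83e-20). The carriers Igfbp3 and Igfbp5 fell. Igfbp3 had 13.4 and 19.4 CPM in K36M, against 719 and 792 CPM in WT (log2 fold change -5.54 ± 0.13, adjusted p = 1.38e-19). Igfbp5 had 2.27 and 1.75 CPM in K36M, against 466 and 491 CPM in WT (log2 fold change -7.88 ± 0.14, adjusted p = 2.19e-21).

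The Wnt, FGF, PDGF and KIT lists held called genes in both directions. Among all tested genes 36.4% were higher and 33.9% lower. In the Wnt list 17 of 38 were higher and 11 lower. Wnt7b, an epithelial ligand, had 43.1 and 35.8 CPM in K36M, against 0.516 and 0.718 CPM in WT (log2 fold change 5.96 ± 0.20, adjusted p = 5.12e-17). Wnt8a had 46.7 and 47.4 CPM in K36M, against 1.46 and 0.359 CPM in WT (log2 fold change 5.75 ± 0.26, adjusted p = 9.61e-15; 6.99 without WT library 1 and 5.00 without WT library 2). Wnt5a, a mesenchymal ligand, had 8.05 and 6.90 CPM in K36M, against 127 and 124 CPM in WT (log2 fold change -4.06 ± 0.12, adjusted p = 5.04e-18). The FGF list held 8 higher and 8 lower of 18. Fgfr2, a receptor with an epithelial splice form, had 76.2 and 72.5 CPM in K36M, against 10.2 and 9.91 CPM in WT (log2 fold change 2.89 ± 0.11, adjusted p = 2.68e-16). Dusp6, an inhibitor induced by FGF signalling, had 56.1 and 48.5 CPM in K36M, against 113 and 109 CPM in WT (log2 fold change -1.08 ± 0.09, adjusted p = 2.87e-10). Of 13 PDGF, KIT and CSF1 genes 5 were higher and 6 lower. The receptor gene Kit had 17.97 and 18.1 CPM in K36M, against 1.55 and 2.23 CPM in WT (log2 fold change 3.23 ± 0.21, adjusted p = 4.23e-12). Its ligand gene Kitl had 2.03 and 2.27 CPM in K36M, against 24.7 and 26.3 CPM in WT (log2 fold change -3.57 ± 0.22, adjusted p = 2.04e-12). Of 13 AP-1 genes, immediate early factors, 8 were lower and 3 higher, with Fosl2 at 132 and 137 CPM in K36M, against 437 and 447 CPM in WT (log2 fold change -1.72 ± 0.07, adjusted p = 3.48e-15). Of 20 surface markers used to follow reprogramming 13 were higher and 7 lower. Alpl, alkaline phosphatase, had 496 and 469 CPM in K36M, against 38.6 and 22.5 CPM in WT (log2 fold change 3.998 ± 0.15, adjusted p = 3.57e-16). The fibroblast marker Cd44 had 153 and 188 CPM in K36M, against 1408 and 1428 CPM in WT (log2 fold change -3.06 ± 0.09, adjusted p = 4.99e-18).

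Markers of other cell types were measured beside these groups. Of 14 tested trophoblast markers 12 were higher in K36M and none lower, with a summed level of 2042 and 1976 CPM in K36M, against 121 and 159 CPM in WT, of which the imprinted Peg10 made up the largest part. Psg29 was at 0 in all 4 libraries. Of 10 muscle markers 9 were higher and none lower, with a sum of 127 and 118 CPM in K36M, against 12.1 and 14.2 CPM in WT, and Myod1 was at 0. Des, which encodes the muscle filament desmin, had 41.3 and 35.3 CPM in K36M, against 0.775 and 1.01 CPM in WT (log2 fold change 5.40 ± 0.27, adjusted p = 3.81e-14). Of 10 endothelial markers 7 were higher and 2 lower, with a sum of 172 and 165 CPM in K36M, against 126 and 127 CPM in WT, and Emcn was at 0. Of 7 neural markers all were lower, with a sum of 346 and 334 CPM in K36M, against 2091 and 2267 CPM in WT. Among them Ncam1, a neural adhesion molecule, had 14.8 and 19.9 CPM in K36M, against 536 and 583 CPM in WT (log2 fold change -5.02 ± 0.11, adjusted p = 8.36e-20).

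Of 16 germline markers 12 were higher and none lower, at a sum of 63.6 and 75.4 CPM in K36M, against 17.2 and 15.01 CPM in WT. Macrophage and blood markers were tested for 3 genes, of which 2 were higher, with a sum of 34.7 and 39.1 CPM in K36M, against 16.96 and 18.02 CPM in WT; Tyrobp was at 0 in all 4 libraries. Keratinocyte markers were higher for 4 of 8 and lower for 2, and their sum was 294 and 269.9 CPM in K36M, against 390.3 and 389 CPM in WT. Primitive endoderm markers were higher for 6 of 11 and lower for 1, with a sum of 635 and 642 CPM in K36M, against 576 and 624 CPM in WT. Col4a1, given above with the collagens and not called, made up most of that sum. Adipocyte markers were higher for 1 of 3 and lower for 2, with a sum of 14.3 and 15.9 CPM in K36M, against 21.9 and 21.04 CPM in WT and Fabp4 at 0 in all 4 libraries. The part of other cell types in the results was not tested.

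Among the 10 largest increases of abundant genes, those on no list were Igf2as, Arhgef16, Frem2, Tns4 and Prtg. Igf2as and Arhgef16 had log2 fold changes of 7.77 and 7.35 (adjusted p = 5.41e-13 and 9.05e-18). Without WT library 1 and without WT library 2 that of Igf2as was 10.15 and 6.79, and that of Arhgef16 was 7.996 without WT library 2. Frem2, a basement membrane protein gene, had 299 and 297 CPM in K36M, against 2.32 and 1.94 CPM in WT (log2 fold change 7.13 ± 0.13, adjusted p = 2.19e-21). Prtg, an embryonic adhesion gene, had 262 and 235 CPM in K36M, against 1.38 and 2.58 CPM in WT (log2 fold change 6.93 ± 0.15, adjusted p = 3.88e-20). Tns4, an adhesion adaptor gene, had 48.5 and 51.4 CPM in K36M, against 0.430 and 0.359 CPM in WT (log2 fold change 6.96 ± 0.20, adjusted p = 4.34e-18). Among the 10 largest decreases, those on no list were Megf10 and C1qtnf3, whose levels are given with the comparison of the media, Osbp2, Antxr1, Pappa and Gpm6b. Osbp2, a sterol-binding protein gene, had 7.03 and 9.70 CPM in K36M, against 656 and 657 CPM in WT (log2 fold change -6.30 ± 0.13, adjusted p = 2.61e-20). Antxr1, a collagen-binding receptor gene, had 2.81 and 2.62 CPM in K36M, against 182 and 196 CPM in WT (log2 fold change -6.11 ± 0.17, adjusted p = 1.31e-18). Pappa, which encodes a protease of IGF carriers, had 3.75 and 5.16 CPM in K36M, against 274 and 309 CPM in WT (log2 fold change -6.04 ± 0.15, adjusted p = 3.87e-19). Every K36M library lay above every WT library for Frem2, Prtg and Tns4, and below for Osbp2, Antxr1 and Pappa. This follows from picking the largest differences, and the groups did not overlap for 85.2% of all tested genes.

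At least 10 counts in each K36M library and 0 in both WT libraries were found for 151 genes, and the reverse for 47. Of the 151, 105 were at 1 CPM or above in K36M under Repsox and 34 in WT under Repsox. Of the 47, 0 were at 1 CPM or above in K36M under Repsox and 16 in WT under Repsox. Aire, the autoimmune regulator of the thymus, had 35.3 and 36.7 CPM in K36M, against 0 and 0 CPM in WT, and was at least 306-fold higher in K36M when WT is set to 3 counts over its 2 libraries. Klhl1, which encodes an actin-binding protein of neurons, had 0 and 0 CPM in K36M, against 13.4 and 12.5 CPM in WT, and was at least 104-fold lower. Tnfsf11, the gene of the osteoclast factor RANKL, had 0 and 0 CPM in K36M, against 3.44 and 4.38 CPM in WT, at least 31.9-fold lower.

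The same genotypes were compared under Repsox from other libraries, in which 4551 genes (28.8%) were higher in K36M and 4254 (26.9%) lower. Of the 5741 genes higher under TGF-beta, 2953 were also higher under Repsox, which is 51.4% of the TGF-beta set and 64.9% of the Repsox set, and 628 were lower there. Of the 5357 lower under TGF-beta, 2771 were also lower under Repsox, 51.7% and 65.1% of the 2 sets, and 657 were higher there. The test of the difference between the media called 8055 genes (51.0%). The signed log2 difference, K36M minus WT, was larger under TGF-beta for 4493 (28.5%) and smaller for 3562 (22.6%). A deeper decrease under TGF-beta therefore counts as smaller. Of the 3562, 821 were lower in K36M in both media, and 1361 were lower under TGF-beta and not called under Repsox. Of the 4493, 415 were lower in both media, with the shallower decrease under TGF-beta. All 628 and all 657 genes of opposite sense were among those called. This follows almost entirely from how they were picked, since opposite calls in the same fit already make the difference between the media wide.

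The lists differed in how much the medium mattered. The mesenchymal factors had a median log2 fold change of -3.42 under TGF-beta and -3.56 under Repsox, with 5 members called for a difference between the media, all of them larger under TGF-beta, which here is less negative. The 23 mitosis genes, with a median of 3.05 under TGF-beta and 0.46 under Repsox, were all called as larger under TGF-beta, and so were 30 of 33 replication genes (1.49 and 0.09) and 17 of 20 naive pluripotency genes (3.48 and 0.33). Among tight junction genes 16 of 19 were called as larger under TGF-beta (3.86 and 1.26). Of 27 TGF-beta target genes 19 were called as smaller, and the list's median was more negative under TGF-beta (-1.75) than under Repsox (-0.37).

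In K36M under TGF-beta alone of the 4 groups, Trim67, a ubiquitin ligase gene of neurons, was well above 1 CPM: it had 26.1 and 25.9 CPM in K36M, against 0.0861 and 0.431 CPM in WT under TGF-beta and 0 and 0.0804 CPM in K36M and 0.135 and 0.604 CPM in WT under Repsox (interaction log2 value 9.53 ± 1.27, adjusted p = 1.48e-06; its log2 fold change under TGF-beta was 5.87 without WT library 1 and 8.09 without WT library 2). Kbtbd11 was higher under TGF-beta, with 16.5 and 16.4 CPM in K36M, against 0.603 and 0.718 CPM in WT, and lower under Repsox, with 1.25 and 2.49 CPM in K36M and 5.19 and 6.80 CPM in WT (interaction log2 value 6.31 ± 0.45, adjusted p = 9.78e-11). Crabp1, which binds retinoic acid, reversed likewise, with 16.3 and 15.9 CPM in K36M, against 1.29 and 2.58 CPM in WT under TGF-beta and 15.5 and 18.3 CPM in K36M and 192 and 217 CPM in WT under Repsox (interaction log2 value 6.62 ± 0.23, adjusted p = 5.8e-16; its log2 fold change under TGF-beta was 3.63 without WT library 2).

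Other genes were high in WT under TGF-beta and low in the other 3 groups. Megf10, an engulfment receptor gene, had 1.02 and 1.83 CPM in K36M, against 350.3 and 381 CPM in WT, and 0.263 and 0.402 CPM in K36M and 1.21 and 0.604 CPM in WT under Repsox (interaction log2 value -6.54 ± 0.84, adjusted p = 9.41e-07). C1qtnf3, a secreted C1q family gene, had 4.06 and 2.53 CPM in K36M, against 351 and 342 CPM in WT, and 0.132 and 0.804 CPM in K36M and 0.270 and 0.907 CPM in WT under Repsox (interaction log2 value -6.31 ± 0.89, adjusted p = 3.12e-06). Lox was also highest in WT under TGF-beta, but K36M under TGF-beta, with 44.5 and 58.5 CPM, lay above both Repsox groups, which had 0.790 and 5.63 CPM in K36M and 4.58 and 3.70 CPM in WT (interaction log2 value -5.20 ± 0.51, adjusted p = 1.45e-08). B2m was lower in K36M under TGF-beta and higher under Repsox, where it had 84.9 and 92.2 CPM in K36M and 40.6 and 61.6 CPM in WT (interaction log2 value -2.03 ± 0.18, adjusted p = 3.47e-09). Thy1 was the opposite case, with 14.7 and 13.9 CPM in K36M and 552 and 549.7 CPM in WT under Repsox (interaction log2 value 5.65 ± 0.14, adjusted p = 8.3e-18).

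**Figure D5:**
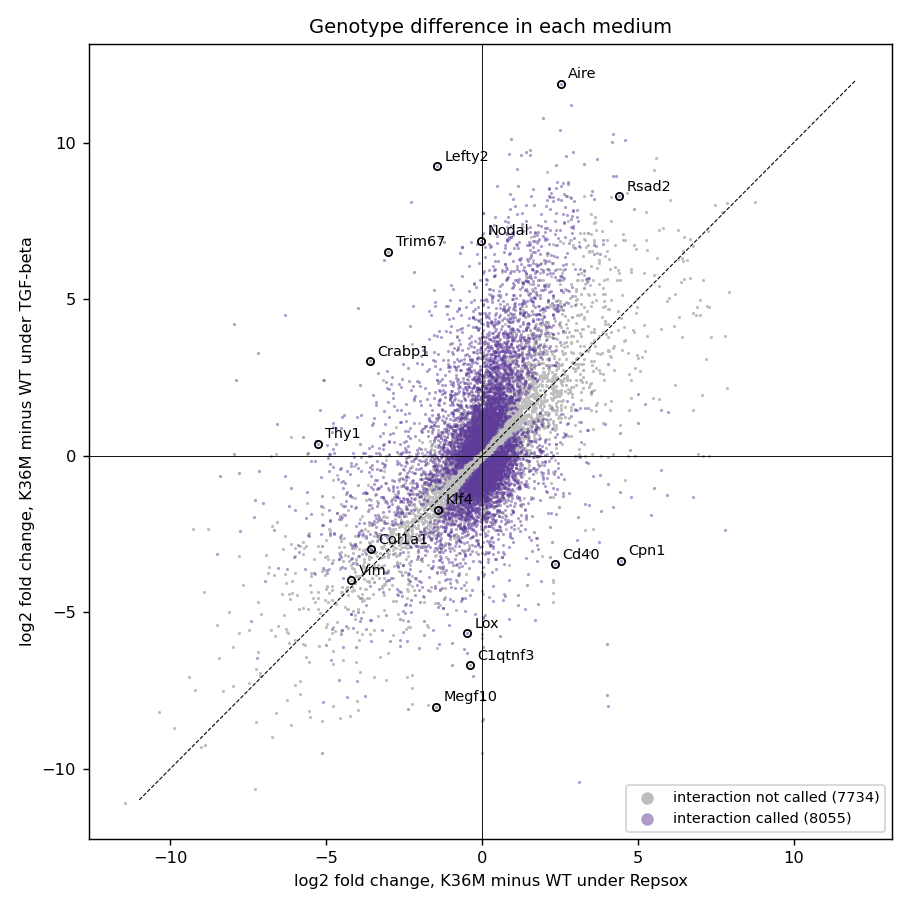
Each point is a tested gene, with the log2 fold change, K36M minus WT, under TGF-beta on the vertical axis and under Repsox on the horizontal axis; purple points were called for a difference between the media. Lefty2, Trim67 and Crabp1 lie above 0 under TGF-beta and below 0 under Repsox, Cpn1 and Cd40 lie the other way, and Vim lies near the dashed line of equal differences. The levels of Lefty2 and Trim67 under Repsox were close to the detection limit in both genotypes, so their sign there is uncertain.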

How the data were processed

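Per the labels' protocols, RNA was sequenced after removal of ribosomal RNA, in 8 libraries, 2 for each of 4 groups. The values are whole-number read counts per gene, deposited by the authors as 1 table of 26930 genes. The genome mm9 and the tools STAR 2.5.0, HTSeq 0.11.2 and edgeR are named by the submitters' processing notes; the role of edgeR, the annotation and the strand setting are not stated there, so reads of overlapping or antisense genes could not be told apart. Of the identifiers, 26763 were found in GENCODE vM1, which gave the mm9 coordinates.

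In R 4.3.3, 15789 genes passed filterByExpr of edgeR 4.0.16 and libraries were scaled by TMM (factors 0.894 to 1.057). The quasi-likelihood F test used 1 model of the 4 groups with all 8 libraries (4 residual and 17.5 prior degrees of freedom, common biological coefficient of variation 0.07). Calls were made below an adjusted p (Benjamini-Hochberg, over all tested genes) of 0.05. Each standard error is the absolute log2 fold change divided by the root of its F. CPM are on TMM-scaled library sizes. Totals were 10928302 to 15594217 counts; bounds against a group at 0 use 3 counts over the group and cover counting error only. The fit was tested on simulated data. Promoters came from RefSeq on GRCm38.p6.

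The 47 gene lists hold 917 entries, 6 of them with no match in the table. A gene is named when it was among the 10 largest increases or decreases (average log2 CPM of at least 5), the leading called members of a list, a fixed set, or the largest medium-dependent, opposite, 1-group or library-uneven differences; others are said to have been chosen after their values were seen. A few genes of these sets are not reported here. The members, lists and alternatives were chosen with earlier results of these data known. Alternatives were RLE scaling, no filter on low counts, the 4 TGF-beta libraries alone, DESeq2 1.42.0, glmTreat, a replicate block and leaving out each library.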

Additional observations from a re-analysis of the deposited data

Results flagged for a closer look

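The difference between K36M and WT depended on the medium, by the test of the difference itself, for 4493 genes with a larger signed log2 value under TGF-beta and 3562 with a smaller one. Among named genes the interaction log2 values, TGF-beta minus Repsox, were 10.70 for Lefty2, 9.53 for Trim67, 9.37 for Aire, 6.90 for Nodal, 6.62 for Tmem51, 6.62 for Crabp1, 6.48 for Igf2as, 6.40 for Wnt8a and 6.31 for Kbtbd11. In the other direction they were -5.20 for Lox, -5.81 for Cd40, -5.83 for Osbp2, -5.90 for Fam176a, -5.92 for Hcn4, -6.29 for Dmrtc1a, -6.31 for C1qtnf3, -6.34 for Fbxo40, -6.54 for Megf10 and -7.82 for Cpn1. Aire had 0 counts in WT under TGF-beta and Dmrtc1a 0 counts in K36M under TGF-beta, so their fitted values depend on the prior count. Under Repsox, Lefty2, Trim67, C1qtnf3, Fbxo40 and Megf10 were close to the detection limit in both genotypes, and Cpn1 and Cd40 in WT. The size of their interaction values therefore rests on few reads. Igf2as lies antisense to Igf2, and reads of the pair cannot be told apart. The log2 fold change under TGF-beta was 8.49 without WT library 1 and 6.78 without WT library 2 for Tmem51, 10.15 and 6.79 for Igf2as, and -6.36 without K36M library 1 for Fbxo40. With 2 libraries a group, no single library could be tested as standing apart.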

How the results depend on the processing

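Among the named genes, for which this was checked, no called value changed sign in any alternative tried. Of the named genes that were not called, Smad4, Ski, Setd2 and Lars2 changed sign when 1 library was left out. Of 305 named genes, 293 kept their side of the threshold in every alternative; the others included Tgfb1, Ndufa5, Ccne2, Psmb10, Thy1, Smad3, Lars2, H3f3a, Tgif2, Foxd3 and Zeb1. The genes called numbered 10022 to 11323 over the alternatives, against 11098, and 50.5 to 51.9% of calls were higher in K36M. The median log2 fold change of all genes lay between 0 and 0.07. When 1 library was left out, the remaining library was assumed to vary like the other groups, and genes higher in K36M numbered 5171 to 5348 and genes lower 4851 to 5036. Against a 2-fold change tested with glmTreat, 2762 genes were higher and 1940 lower. At a minimum of 20 counts in each library, genes read in K36M only numbered 74 and genes read in WT only 30, which follows from the stricter minimum. With the TGF-beta libraries alone, 1 adipocyte marker was called lower, against 2. With the 4 TGF-beta libraries alone Tgfb1 was called (adjusted p = 0.046).

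The replicate numbers in the labels did not pair the samples: their deviations from the group means correlated at -0.023 to 0.042. With the replicate block 5739 genes were higher and 5365 lower, and 11025 of the calls were shared with the fit without it. Depth limits the genes at or below an average log2 CPM of 0, and a gene at 0 counts is only below detection.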
